A study of Mus musculus with 6 samples.

Results

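Mitochondrial DNA encodes 6 protein subunits of the respiratory chain beyond complex I, namely mt-Cytb of complex III, mt-Co1, mt-Co2 and mt-Co3 of complex IV, and mt-Atp6 and mt-Atp8 of complex V. They were taken by gene name from a table of 6462 named genes, in which each of the 6 has 1 listed transcript. The transcripts lie at 4 assembled loci, because mt-Atp8, mt-Atp6 and mt-Co3 share a single locus. RNA had been sequenced from C17.2 cells, an established multipotent mouse neural stem cell line from a CD1 x C57BL/6 background, in 3 groups of 2 labelled replicates. Control cells were kept in DMEM/F12 growth medium with 10% fetal bovine serum. Neural induction cells were cultured in Knockout DMEM with GlutaMAX, N2 supplement and brain-derived neurotrophic factor (BDNF) at 10 ng/ml. The labels state neither how much heme was given, for how long and in which medium, nor how long induction lasted. The labels do not say whether replicates were separate cultures, so p-values measure the spread between these libraries, which may be technical.

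The heme replicate 2 column was not used in the comparisons. Over 13963 transcripts above 0, its values are 1.25 to 1.5 times those of heme replicate 1, and all 1150 zeros coincide. Both were therefore counted as 1 heme library, which left 5 libraries with 4.14 to 4.56 gigabases of mapped sequence each. Of the 7 neural progenitor markers checked, 3 were listed, and nestin (Nes) was at 108 to 132 FPKM in every library (FPKM, fragment counts divided by transcript length and by library size). None of the astrocyte, microglia, erythroid or endothelial markers was listed, while 2 of 6 neuronal and 2 of 5 oligodendrocyte lineage markers were. Some stress and growth genes were looked up because an earlier report on these data had found them apart in control replicate 2. Their values are therefore a description only. Hmox1, the heme oxygenase that breaks down heme, had 222 FPKM in control replicate 2 against 43.7 in its partner. The proliferation marker Mki67 had 15.7 against 33.5.

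The respiratory chain passes electrons along complexes in the inner mitochondrial membrane and stores the energy as a proton gradient, which ATP synthase (complex V) uses to make ATP. Cytochrome b (mt-Cytb) holds the b hemes of complex III and mt-Co1 holds the heme a groups of cytochrome c oxidase, so both are themselves hemoproteins. All 6 genes are read from the same strand of the mitochondrial DNA as long precursor RNAs that are cut mostly at the transfer RNAs between genes. No transfer RNA separates mt-Atp8, mt-Atp6 and mt-Co3, and the first 2 of these are translated from 1 shared mRNA.

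The gene ends show how closely the members of the shared locus are packed. The sequences are from the GENCODE M21 transcripts on GRCm38, whose positions on the mitochondrial chromosome are the same as in the deposited table, and all are on the plus strand. Capitals mark the bases that a gene shares with its neighbour. The last 60 bases of mt-Atp8 (7910 to 7969) and the first 60 of mt-Atp6 (7927 to 7986) have 43 bases in common, which make up 21.1% of mt-Atp8 and 6.31% of mt-Atp6. The last 30 bases of mt-Atp6 (8578 to 8607) and the first 30 of mt-Co3 (8607 to 8636) have 1 base in common.
mt-Atp8, last bases: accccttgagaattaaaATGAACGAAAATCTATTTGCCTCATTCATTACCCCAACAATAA
mt-Atp6, first bases: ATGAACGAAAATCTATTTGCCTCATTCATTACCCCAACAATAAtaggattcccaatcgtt
mt-Atp6, last bases: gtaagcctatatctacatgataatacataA
mt-Co3, first bases: Atgacccaccaaactcatgcatatcacata

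The other ends differ in how the stop codon is encoded. In the last 30 bases of the genes below, capitals mark the stop codon or its first base. The gene sequences of mt-Co1 and mt-Co2 hold a whole TAA, whereas those of mt-Co3 and mt-Cytb end 1 base into the codon, which in the cell is completed by the poly(A) tail.
mt-Co1, last bases: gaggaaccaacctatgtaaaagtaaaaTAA
mt-Co2, last bases: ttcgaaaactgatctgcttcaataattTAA
mt-Co3, last bases: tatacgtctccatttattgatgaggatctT
mt-Cytb, last bases: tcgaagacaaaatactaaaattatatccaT

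All 6 transcripts were very abundant in every library. Together they took 1.48% and 1.98% of the mapped bases in the control replicates, 1.89% in heme, and 1.6% and 1.85% in the neural induction replicates. Their listed copies on chromosome 1, described below, took a further 0.707%, 0.875%, 0.856%, 0.698% and 0.817% in the same order, so the share of the 6 genes is uncertain. Mean coverage per base of the 6 transcripts lay between 8435 and 23516. The lowest of these values was mt-Co3 in neural induction replicate 1 and the highest was mt-Atp8 in control replicate 2. At such coverage counting error is small, and the number of libraries limits the precision.

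In complex III, mt-Cytb (ENSMUST00000082421, bases 14145 to 15288, 1144 bases) was at 2480 and 3678 FPKM in the control replicates, 3429 in heme, and 2899 and 3302 in the neural induction replicates. The group means were 3079 ± 847 FPKM in control and 3101 ± 285 in neural induction (SD, n = 2 each). The heme and neural induction values all fell between the 2 control values, so the groups overlapped.

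In complex IV, mt-Co1 (ENSMUST00000082402, bases 5328 to 6872, 1545 bases), the catalytic core subunit, was at 3162 and 4594 FPKM in control, 4283 in heme, and 3840 and 4384 in neural induction. Its means were 3878 ± 1012 FPKM in control and 4112 ± 385 in neural induction. As for mt-Cytb, the control pair enclosed every other library. mt-Co2 (ENSMUST00000082405, bases 7013 to 7696, 684 bases), which takes electrons from cytochrome c, was at 2324 and 3382 FPKM in control, 3181 in heme, and 2733 and 3063 in neural induction. Its means were 2853 ± 748 and 2898 ± 233 FPKM, and the control pair again enclosed the rest. mt-Co3 (ENSMUST00000082409, bases 8607 to 9390, 784 bases), the third core subunit, behaved otherwise. It was at 2104 and 2286 FPKM in control, 2301 in heme, and 1851 and 2114 in neural induction, with means of 2195 ± 129 in control and 1983 ± 186 in neural induction. Its control replicates were close together, its heme value lay just above both, and neural induction replicate 1 was the lowest library.

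In complex V, mt-Atp6 (ENSMUST00000082408, bases 7927 to 8607, 681 bases), which forms part of the proton channel, was at 4220 and 4865 FPKM in control, 4853 in heme, and 3743 and 4617 in neural induction. The means were 4543 ± 456 FPKM in control and 4180 ± 618 in neural induction. mt-Atp8 (ENSMUST00000082407, bases 7766 to 7969, 204 bases), a small membrane subunit, was at 4669 and 5403 FPKM in control, 5338 in heme, and 4220 and 5093 in neural induction, with means of 5036 ± 519 and 4656 ± 618. For both genes neural induction replicate 1 was the lowest library, and control and neural induction overlapped. mt-Atp8 had the highest FPKM of all listed transcripts in each of the 5 libraries.

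**Figure D1:**
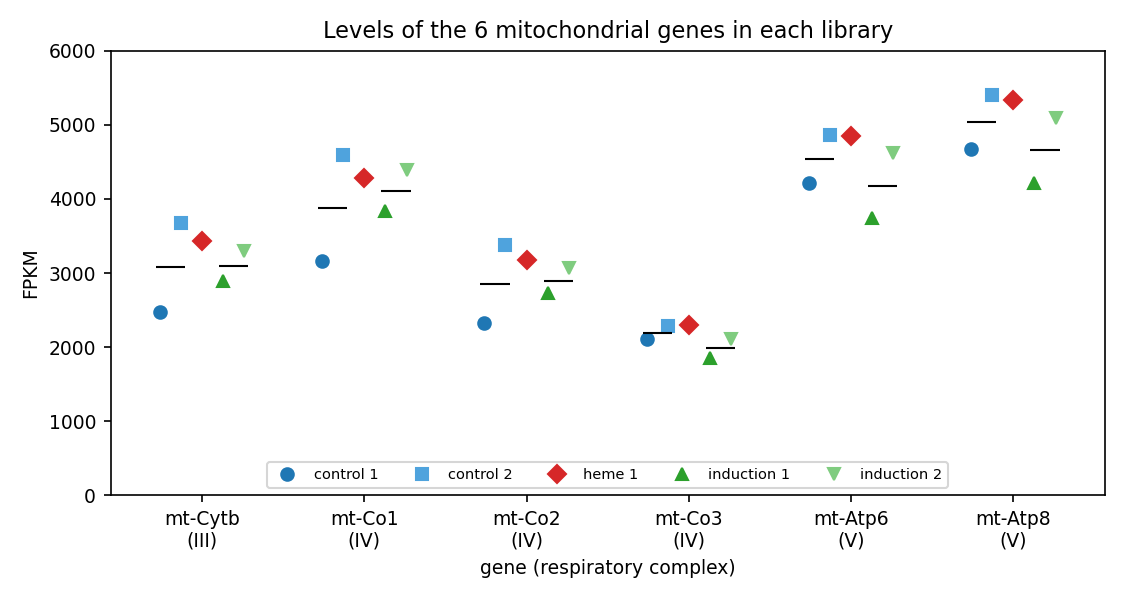
FPKM of the 6 mitochondrial genes (y axis) in the 5 libraries, with 1 point per library, groups set apart by colour and short lines at the means of control and of neural induction. For mt-Cytb, mt-Co1 and mt-Co2 the control libraries are the lowest and the highest points, while for mt-Co3, mt-Atp6 and mt-Atp8 the lowest is neural induction replicate 1.

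FPKM is scaled by transcript length, so levels were set side by side between genes, with limits. mt-Atp8 and mt-Atp6 are on 1 shared mRNA, so their values are not levels of separate RNAs. mt-Atp8 is only 204 bases long and shares 43 of them with mt-Atp6. Nuclear copies, described below, make several of the levels uncertain. Over the 5 libraries the mean levels were 4944 ± 497 FPKM for mt-Atp8, 4460 ± 478 for mt-Atp6, 4053 ± 569 for mt-Co1, 3158 ± 472 for mt-Cytb, 2937 ± 416 for mt-Co2 and 2131 ± 182 for mt-Co3 (SD, n = 5). Neighbours in that order lay within the larger of their SDs, except that mt-Co1 was above mt-Cytb and mt-Co2 above mt-Co3 by more than either SD. The order was the same in 4 libraries, and in neural induction replicate 1 mt-Co1 was above mt-Atp6. The highest level was 2.22 to 2.41 times the lowest within a library.

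The 6 genes fell into 2 sets by how they differed between libraries, a division made after the values were seen. In control replicate 2 against control replicate 1 the FPKM ratio was 1.48 for mt-Cytb, 1.45 for mt-Co1 and 1.46 for mt-Co2, but 1.16 for mt-Atp8, 1.15 for mt-Atp6 and 1.09 for mt-Co3. The lower set is the shared locus. In neural induction replicate 1 against control replicate 1 the ratio was 1.17, 1.21 and 1.18 for mt-Cytb, mt-Co1 and mt-Co2, and 0.904, 0.887 and 0.88 for mt-Atp8, mt-Atp6 and mt-Co3. The sets thus lay on opposite sides of 1 in that pair. Between the neural induction replicates the genes did not divide in this way. The ratio of replicate 2 to replicate 1 was 1.14, 1.14 and 1.12 for mt-Cytb, mt-Co1 and mt-Co2. It was 1.21 and 1.23 for mt-Atp8 and mt-Atp6, but 1.14 for mt-Co3, as in the other set.

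Ratios within a library remove its scaling and show the same sets. mt-Atp8 was 1.1 to 1.13 times mt-Atp6 in every library, and mt-Co2 was 0.92 to 0.943 times mt-Cytb. Across the sets the ratio moved more: mt-Atp6 was 1.33 and 1.06 times mt-Co1 in the control replicates, 1.13 times in heme, and 0.975 and 1.05 times in the neural induction replicates. Control replicate 1 was the library that stood apart. The highest of these mt-Atp6 to mt-Co1 ratios was 1.37 times the lowest. The same measure was 1.02 for mt-Atp8 to mt-Atp6, but these are on 1 shared mRNA, so their ratio could hardly move. For other pairs within a set it was 1.09 for mt-Atp6 to mt-Co3, 1.06 for mt-Co1 to mt-Cytb and 1.03 for mt-Co2 to mt-Cytb. No test of this division was made.

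The lower ratios in the control pair belonged to a contiguous stretch of mitochondrial DNA. The next gene after mt-Co3, mt-Nd3 of complex I, had a control ratio of 1.08, and the other 6 complex I mRNAs had ratios from 1.26 (mt-Nd1) to 1.47 (mt-Nd4). Over the 7 complex I mRNAs the median control ratio was 1.41, beside 1.3 over the 6 complex III to V mRNAs. All 13 mitochondrial mRNAs were higher in control replicate 2. Outside the 6 genes, 5539 transcripts had at least 5 FPKM in each library, complex I mRNAs included. Their median ratio was 0.997, with a 5th to 95th percentile range of 0.595 to 1.7. Whether the stress and growth gene levels of control replicate 2 have a part in these ratios was not tested.

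**Figure D2:**
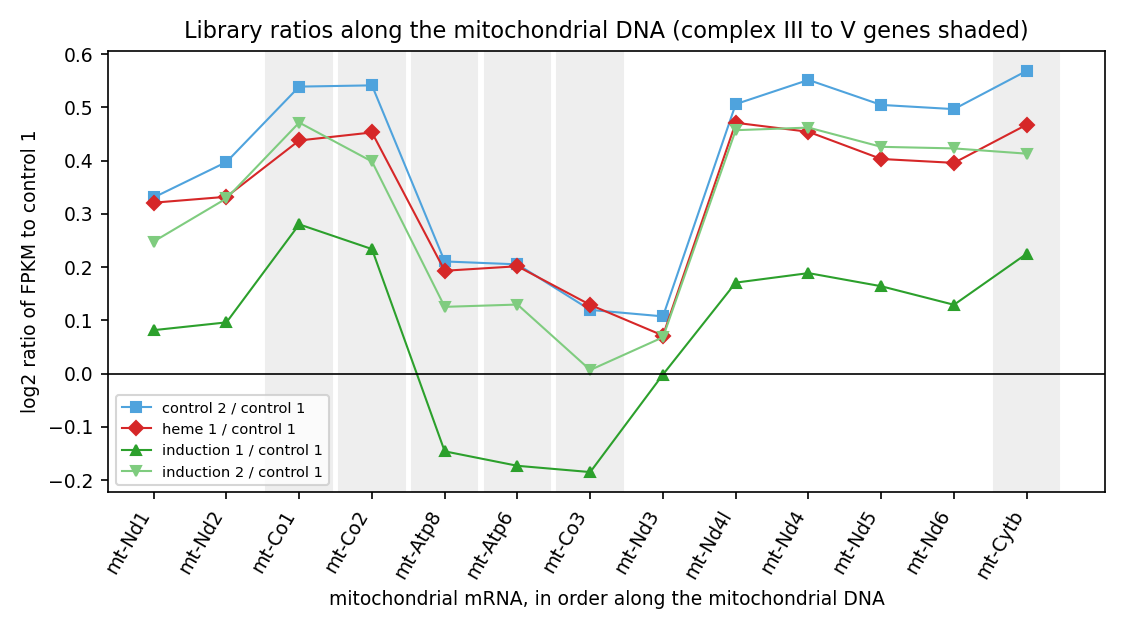
Log2 FPKM ratios of the other 4 libraries to control replicate 1 (y axis), 1 line per library, for mitochondrial mRNAs in their order along the mitochondrial DNA (x axis), with the complex III to V genes shaded. From mt-Atp8 to mt-Nd3 the line of control replicate 2 is at linear ratios of 1.08 to 1.16, and at the other mRNAs it is at 1.26 to 1.48.

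For 4 of the 6 genes the table lists a near-identical copy on nuclear chromosome 1, where a stretch of mitochondrial DNA was inserted. On GRCm38, minus strand, Gm28661 (24614885 to 24615565) has all of its 681 bases in common with mt-Co2, Gm10925 (24613974 to 24614651) all of its 678 with mt-Atp6, and Gm28437 (24613189 to 24613971) all of its 783 with mt-Co3. Gm29216 (24615706 to 24616197) matches bases 1054 to 1545 of mt-Co1 with 6 differences in 492 bases. Reads from an identical stretch cannot be assigned to one of the sites by sequence. In the pair of mt-Co2 and Gm28661, the first 60 bases (mitochondrial bases 7013 to 7072, and chromosome 1, 24615506 to 24615565) show this, with the start codon in capitals.
mt-Co2, first bases: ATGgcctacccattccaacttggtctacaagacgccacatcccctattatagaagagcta
Gm28661, first bases: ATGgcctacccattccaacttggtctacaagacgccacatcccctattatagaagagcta

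In mt-Co1 and Gm29216 the differences all lie within the first bases of the copy. Capitals mark them in mitochondrial bases 6381 to 6440 and in chromosome 1, 24616138 to 24616197. Counted from the first base of mt-Co1, with the mt-Co1 base first, they are T1056A, C1057T, A1059G, A1060G, C1062A and A1066T.
mt-Co1: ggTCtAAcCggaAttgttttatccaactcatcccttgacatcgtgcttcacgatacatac
Gm29216: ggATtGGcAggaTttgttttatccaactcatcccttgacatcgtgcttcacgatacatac

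The copies carried nearly the same FPKM as the mitochondrial genes. Gm28661 was at 2308, 3362, 3159, 2713 and 3032 FPKM in control replicates 1 and 2, heme, and neural induction replicates 1 and 2, which is 0.99 to 0.994 times mt-Co2. Gm28437 was 0.999 to 1 times mt-Co3, and Gm10925 was 1.06 times mt-Atp6 in each library. Gm29216 was 0.525 to 0.533 times mt-Co1. These ratios hardly varied between libraries, so the copies repeat the library pattern of the mitochondrial genes. Less similar copies on chromosome 2 were far lower: Gm13340 has 37 differences from mt-Co1 in 1545 bases and was at 38.4 to 59.8 FPKM, and Gm13341, 95.9% identical to mt-Co2, was at 84.5 to 125 FPKM.

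The table does not show whether reads common to both sites were divided between them or counted at both, so the levels of these 4 genes are uncertain. The FPKM of the chromosome 1 copy, scaled by copy length over gene length, was then added, a choice made after the data were seen. With it the 5-library means were 9158 ± 982 FPKM for mt-Atp6, 5839 ± 827 for mt-Co2, 4734 ± 665 for mt-Co1 and 4259 ± 363 for mt-Co3. mt-Atp8 (4944 FPKM) and mt-Cytb (3158 FPKM) had no listed chromosome 1 copy to add. The last 43 bases of mt-Atp8 are also the first bases of Gm10925. mt-Atp8 lies between mt-Co2 and mt-Atp6, which both have copies in that stretch of chromosome 1, so its level is uncertain too. mt-Atp6 and mt-Co2 then stood above mt-Atp8, and mt-Cytb was the lowest, so the order of levels depends on how the copies are treated. The place of mt-Atp8 in this second order follows from adding copies only where one is listed. Since mt-Atp8 and mt-Atp6 are on 1 shared mRNA, the gap between them there is not a difference in RNA level. mt-Co2 and mt-Co3, which each have an identical copy, had control ratios of 1.46 and 1.09, and the part of the copies in the 2 sets was not tested.

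**Figure D3:**
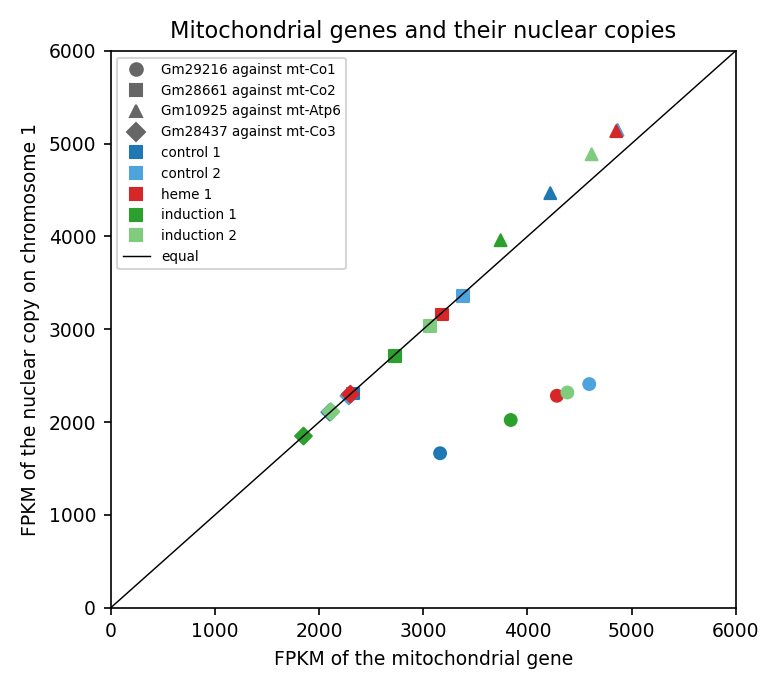
FPKM of each chromosome 1 copy (y axis) against FPKM of its mitochondrial gene (x axis), 1 point per library, with a line at equal levels. The copies of mt-Co2, mt-Co3 and mt-Atp6 lie close to the line, from 0.99 to 1.06 times the mitochondrial gene, and the partial copy of mt-Co1 lies at 0.525 to 0.533 times.

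Heme against control addressed whether heme alters these transcripts in progenitors. None of the 6 changed at an adjusted p of 0.05 in a limma fit of log2(FPKM + 1) over 13737 transcripts, where 0% of transcripts were called higher, 0.0728% lower, and 4.95% had an unadjusted p under 0.05. None of the 6 had an unadjusted p under 0.05. The log2 differences were 0.18 for mt-Cytb (SE 0.276, 95% interval -0.58 to 0.95, limma adjusted p = 0.978), 0.17 for mt-Co1 (SE 0.268), 0.18 for mt-Co2 (SE 0.263), 0.07 for mt-Co3 (SE 0.134, interval -0.30 to 0.44), 0.10 for mt-Atp6 (SE 0.191) and 0.09 for mt-Atp8 (SE 0.185). The median was 0.13 over the 6 and 0.0021 over all transcripts. The intervals are wide and include differences of either sign.

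The spread between the control libraries was as large as the difference between the groups. The heme library was 1.38 times control replicate 1 but 0.932 times control replicate 2 for mt-Cytb, 1.35 and 0.932 times for mt-Co1, and 1.37 and 0.94 times for mt-Co2. mt-Co3 alone was above both controls in heme, at 1.09 and 1.01 times; over all transcripts tested, 29.4% lay above both controls in the heme library and 31% below both. Without control replicate 1 the median difference of the 6 was -0.05, and without control replicate 2 it was 0.32. A single heme library was available, and its spread was assumed to be that of the other groups.

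Neural induction against control compared the medium that induces differentiation with growth medium. Again none of the 6 was called, in a comparison with 0% of transcripts called higher and 0.00728% lower, and none had an unadjusted p under 0.05 (4.98% of all did). The log2 differences were 0.03 for mt-Cytb (SE 0.226), 0.11 for mt-Co1 (SE 0.219) and 0.05 for mt-Co2 (SE 0.215), but -0.15 for mt-Co3 (SE 0.109, 95% interval -0.45 to 0.15, limma adjusted p = 0.938), -0.12 for mt-Atp6 (SE 0.156) and -0.12 for mt-Atp8 (SE 0.151). The signs follow the 2 sets. Those sets were drawn from ratios between these same libraries, so the match is no separate observation. Every 95% interval includes 0. The median was -0.04 over the 6 and 0.02 over all transcripts. No gene had control and neural induction values that did not overlap, where 17.2% of all transcripts were higher and 13.9% lower without overlap.

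Without control replicate 1 the median of the neural induction differences was -0.22, and without control replicate 2 it was 0.15. mt-Co3 kept a negative difference whichever library was left out, from -0.24 to -0.05. The other 5 genes turned sign in at least 1 of these fits.

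Heme was also set against neural induction directly. The control libraries do not enter these differences, but they share in the estimate of the spread behind the SEs and p-values. All 6 differences were positive, at 0.15 for mt-Cytb (SE 0.276), 0.06 for mt-Co1 (SE 0.268), 0.14 for mt-Co2 (SE 0.263), 0.22 for mt-Co3 (SE 0.134, 95% interval -0.15 to 0.59), 0.22 for mt-Atp6 (SE 0.191) and 0.20 for mt-Atp8 (SE 0.185). None passed, with a limma adjusted p of 1 for each, where 0.00728% of transcripts were called higher and 0.0728% lower, and none had an unadjusted p under 0.05 (4.96% of all did). In 5 of the 6, all but mt-Co1, the heme library was above both neural induction libraries, where 29.5% of all transcripts were above and 36% below. The 6 transcripts come from 1 molecule and varied together between libraries, so these are not 5 separate observations. Neural induction replicate 2 was 1.12 to 1.23 times replicate 1, and the differences depended on which of them was used. Without neural induction replicate 1 the median of the 6 was 0.06, with mt-Co1 at -0.03, mt-Cytb at 0.05 and mt-Atp6 at 0.07. Without neural induction replicate 2 the median was 0.28, with mt-Co1 at 0.16, mt-Cytb at 0.24 and mt-Atp6 at 0.37.

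**Figure D4:**
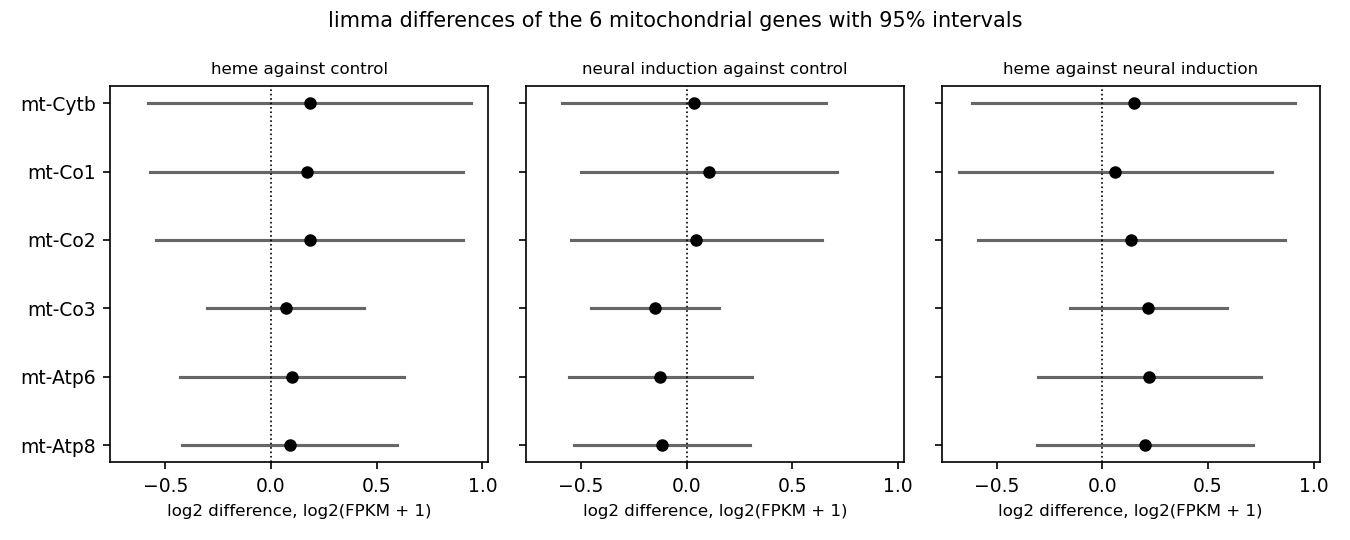
Log2 differences of the 6 genes (x axis) in the 3 comparisons, with points for the limma estimate on log2(FPKM + 1) and bars for its 95% interval. Every bar crosses 0 in each comparison.

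Summed over each locus, the shared locus of mt-Atp8, mt-Atp6 and mt-Co3 was at 10993 and 12554 FPKM in control, 12492 in heme, and 9814 and 11824 in neural induction. Its log2 difference was 0.09 (SE 0.19) for heme against control, -0.13 (SE 0.155) for neural induction against control and 0.21 (SE 0.19) for heme against neural induction, with limma adjusted p of 0.998, 0.935 and 1. None of the 4 loci was called in any comparison, where of 7039 loci 0% were called higher and 0.0426% lower for heme against control, 0% and 0.0142% for neural induction against control, and 0.0142% and 0.0426% for heme against neural induction. None of the 4 had an unadjusted p under 0.05 either, where 3.59%, 3.05% and 3.38% of loci did in the same order.

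The tables of the authors' own comparisons call several of these genes. In the authors' deposited table for heme, with a Benjamini-Hochberg adjustment computed here over its 15113 transcripts, 4 of the 6 were higher: mt-Cytb (log2 fold change 0.44, adjusted p = 3.89e-10), mt-Co1 (0.42, adjusted p = 1.5e-09), mt-Co2 (0.43, adjusted p = 2.88e-09) and mt-Atp6 (0.18, adjusted p = 0.0386). By the same threshold 3.49% of transcripts in the authors' deposited table were higher and 3.75% lower. In the authors' deposited table for neural induction mt-Co1 (0.26), mt-Co2 (0.21) and mt-Cytb (0.21) were higher, and mt-Atp6 (-0.19) and mt-Co3 (-0.20) were lower, with 3.55% of transcripts higher and 3.65% lower. mt-Atp8 was not past the threshold in either of the authors' deposited tables.

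The fold changes in the authors' deposited tables are those of the replicate 1 libraries. For every one of 6751 transcripts with at least 5 FPKM in the heme comparison, the value in the authors' deposited table was within 0.0519 of the log2 ratio of heme replicate 1 to control replicate 1, and for 6746 transcripts in the neural induction comparison the greatest difference was 0.0502. The p-values of the authors' deposited tables therefore compare 1 library with 1 other library, and do not hold the spread between control replicates given above.

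**Figure D5:**
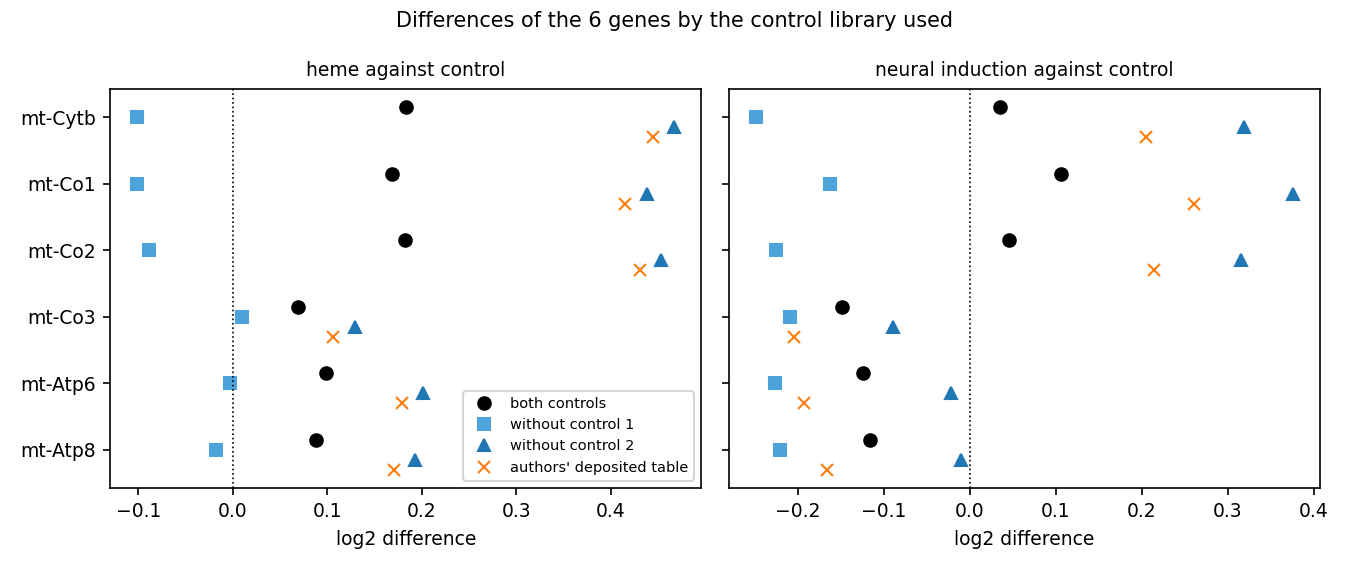
Log2 differences of the 6 genes (x axis) for heme and for neural induction against control, with both control libraries, without control replicate 1, without control replicate 2, and in the authors' deposited table. For mt-Cytb in heme the value is 0.18 with both controls, -0.10 without control replicate 1 and 0.47 without control replicate 2, beside 0.44 in the authors' deposited table.

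Summed FPKM of the listed nuclear-encoded partners of these subunits was 859 to 914 for complex III (9 genes), 1969 to 2060 for complex IV (12 genes) and 3062 to 3392 for complex V (18 genes). In control replicate 2 against control replicate 1 these sums had ratios of 0.997, 1.04 and 1.02, beside 1.28 for the sum of the 6 mitochondrial genes. These are sums, and single nuclear genes varied as widely as the mitochondrial ones, such as Uqcrq of complex III, which ran from 33.4 FPKM in control replicate 1 to 52.1 in neural induction replicate 2. None of the 11, 22 and 45 nuclear transcripts tested was called in any of the 3 comparisons. For heme against control the median log2 difference was -0.03 for complex III, -0.01 for complex IV and -0.06 for complex V, and for neural induction against control it was 0.07, 0.02 and 0.02. The most abundant locus of each list was Uqcrb at 187 to 215 FPKM, a structural subunit, Cox8a at 414 to 424, a small structural subunit, and Atp5b at 814 to 855, the catalytic beta subunit.

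Cox6c, another small nuclear subunit of cytochrome c oxidase, had the smallest unadjusted p of its list for neural induction. It was at 186 and 187 FPKM in control, 183 in heme, and 122 and 114 in neural induction, so neural induction lay below all other libraries. The log2 difference from control was -0.66 (SE 0.0703, unadjusted p = 0.000417), which did not pass after adjustment over all loci (limma adjusted p = 0.489). In complex V, Atp5h, a subunit of the stalk, was at 231 and 232 FPKM in control, 193 in heme, and 227 and 224 in neural induction. Its heme value was the lowest, with a log2 difference from control of -0.27 (SE 0.0741, limma adjusted p = 0.989).

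Genes that build these complexes or handle mitochondrial DNA and RNA gave no calls either. No transcript was called in any comparison among 6 tested for complex III assembly, 11 for complex IV assembly with heme A and copper delivery, 2 for complex V assembly, 14 for mitochondrial DNA replication and transcription and 26 for mitochondrial RNA processing. Ssbp1, the single-stranded DNA-binding protein of mitochondrial DNA replication, was at 27.3 and 27.9 FPKM in control, 18.1 in heme, and 27.5 and 25.4 in neural induction. Heme was the lowest library, with a log2 difference from control of -0.58 (SE 0.12, limma adjusted p = 0.787). Pnpt1, the mitochondrial polynucleotide phosphorylase that degrades RNA, was at 37.8 and 38.6 FPKM in control and 31.1 to 32.3 in the other 3 libraries. The log2 difference of neural induction from control was -0.28 (SE 0.0823, limma adjusted p = 0.935).

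None of the mitochondrial complex I mRNAs was called. Their median log2 difference was 0.15 for heme against control and 0.03 for neural induction against control over 7 transcripts, with 7 and 5 of them positive. The sum of the 2 mitochondrial ribosomal RNAs was 291 and 477 FPKM in control, 362 in heme, and 354 and 394 in neural induction, with the control replicates again the lowest and the highest libraries.

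Outside mitochondrial DNA, 6 of 5551 named loci with a mean of at least 5 FPKM were nearest to the mean profile of the 6 genes over the 5 libraries. Likeness was the root mean square difference of log2(FPKM + 1), each profile centred on its mean. The nearest was Gmnn, the replication licensing inhibitor geminin, at 0.0387, followed by Rtn4, a shaper of the endoplasmic reticulum, at 0.0422, Zzz3 at 0.0445, Srbd1 at 0.0447, Pea15a at 0.0532 and Tdrd7 at 0.0561. The median locus was at 0.194 and a flat profile would be at 0.147. Gmnn was at 9.05 and 11.6 FPKM in control, 12 in heme, and 9.13 and 11.4 in neural induction, low in control replicate 1 and in neural induction replicate 1 as the mitochondrial genes were. With 5 libraries and so many loci some profiles lie close to any profile, and the order is a description with no test.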

How the data were processed

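RNA was sequenced in 6 labelled samples of C17.2 cells. Per the labels' protocols, total RNA went into Illumina TruSeq libraries. HISAT2, StringTie and edgeR on GRCm38 (mm10) are named, with no versions or settings, per the submitters' processing notes. The authors deposited FPKM and coverage (mean signal per base) for 15113 assembled transcripts at 7171 loci. Per the file headers, their tables for heme and for neural induction give each transcript's p-value, log2 fold change, log2 abundance and likelihood ratio score. The rule that chose the listed transcripts is not given in the sources used here. Mapped bases per library are the ratio of deposited coverage to FPKM, and the listed transcripts hold 71.5% to 72% of them.

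Tests used limma (version 3.58.1, R 4.3.3) with eBayes and its trend option, on log2(FPKM + 1) of transcripts or locus sums with at least 1 FPKM in at least 2 of 5 libraries. It had 3 groups, 2 residual degrees of freedom, two-sided tests, and Benjamini-Hochberg adjustment over all features at 0.05. The pseudocount of 1 FPKM hardly affects genes at these levels. The script was tested on simulated data. The genes and lists were chosen with earlier results of these data known. The text names the 6 genes whatever their values, up to 3 genes per list and comparison with the smallest p, the most abundant one, and the 6 loci with the most similar profile. No count model and no counting intervals were possible from FPKM. Sequences were read with Python 3.11.15 from GENCODE M21.

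Alternatives were a pseudocount of 0.1, no filter, TMM scaling of coverage times length, equal totals outside mitochondrial DNA, all 6 columns, the mean of the heme columns, a replicate block, each library left out, and genes joined with their chromosome 1 copies, the last added after seeing the data.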

Additional observations from a re-analysis of the deposited data

Results flagged for a closer look

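The heme replicate 2 column, which no comparison used, holds values for all 6 genes above every control library: 4978 FPKM for mt-Cytb, 5948 for mt-Co1, 4265 for mt-Co2, 3239 for mt-Co3, 6471 for mt-Atp6 and 7430 for mt-Atp8. The highest control values were 3678, 4594, 3382, 2286, 4865 and 5403 FPKM in the same order. Each value in that column is a multiple of heme replicate 1 between 1.25 and 1.5, as it is for transcripts outside mitochondrial DNA, with a mean factor of 1.37 over all. The column has no constant ratio of coverage to FPKM (3.35 to 5.16), unlike the other 5.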

How the results depend on the processing

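Under the 8 alternatives that kept every library, none of the 6 genes or 4 loci was called. The limma adjusted p was 0.381 or higher for each. Over all transcripts, calls for heme against control ranged from 0 of 13737 with the replicate block to 251 higher and 166 lower of 14037 with all 6 columns. Under these 8 alternatives all 30 differences of single genes and loci kept their sign. Signs turned only when libraries were left out. Without control replicate 1, the heme differences were -0.10 for mt-Cytb, -0.10 for mt-Co1, -0.0886 for mt-Co2, -0.0035 for mt-Atp6, -0.0175 for mt-Atp8 and -0.0072 for the shared locus, and the neural induction differences were -0.25 for mt-Cytb, -0.16 for mt-Co1 and -0.23 for mt-Co2. Without neural induction replicate 1, the neural induction differences were 0.0272 for mt-Atp6, 0.02 for mt-Atp8 and 0.0093 for the shared locus, and mt-Co1 in heme against neural induction was -0.0336. Without neural induction replicate 2, the neural induction differences were -0.06 for mt-Cytb and -0.04 for mt-Co2.

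Over the fits that left out 1 library, the highest heme differences were 0.47 for mt-Cytb, 0.44 for mt-Co1, 0.45 for mt-Co2, 0.20 for mt-Atp6, 0.19 for mt-Atp8 and 0.18 for the shared locus. For neural induction against control the values ran from -0.25 to 0.32 for mt-Cytb, -0.16 to 0.38 for mt-Co1, -0.23 to 0.32 for mt-Co2, -0.28 to 0.03 for mt-Atp6, -0.25 to 0.02 for mt-Atp8 and -0.26 to 0.01 for the shared locus. In heme against neural induction mt-Co1 ran from -0.03 to 0.16, mt-Cytb from 0.05 to 0.24, mt-Co2 from 0.05 to 0.22, mt-Co3 from 0.12 to 0.31, mt-Atp6 from 0.07 to 0.37 and mt-Atp8 from 0.07 to 0.34. The medians of the 6 ran from -0.05 to 0.32, from -0.22 to 0.15 and from 0.06 to 0.28 in the order of the report.

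With all 6 columns the heme median was 0.36, with 251 transcripts called higher and 166 lower, against 0 and 10 in the 5-library fit. The median of all transcripts was then 0.22, and the 6 genes were not called. For heme against neural induction the calls were 269 and 163, against 1 and 10, and for neural induction against control 37 and 49, against 0 and 1. Replicate numbers were treated as shared labels only, since control and neural induction deviations correlated at -0.04 over 8165 transcripts. For the 6 genes replicate 2 was above replicate 1 in both groups in 6 of 6. They come from 1 molecule and varied together, so these are not 6 separate observations. Of 5539 transcripts outside the 6, with at least 5 FPKM in each library, 2744 were higher in replicate 2 in control and 2616 in neural induction. With the replicate as a block the medians were 0.29 and 0.32 for heme against control and against neural induction, against 0.13 and 0.18 without it, with 0 transcripts called.

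Precision is limited by 2 libraries per group and 1 for heme. The 95% intervals for heme against control ran from -0.58 to 0.95 for mt-Cytb and from -0.30 to 0.44 for mt-Co3, so true differences of any size inside them, including 0, remain possible.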
